A study of Homo sapiens with 6 samples.

Results

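Shelterin and telomerase genes were followed in H9 cells, an established human embryonic stem cell line, after transfection of an oligonucleotide against LINE-1, the retrotransposon that is still autonomous in the human genome. The set holds 8 genes of the 53712 in the count table, chosen by symbol: the 6 genes of the shelterin complex (TERF1, TERF2, TERF2IP, TINF2, ACD and POT1), TERT and RTEL1. All 8 were found in the table and all 8 passed the filter on low counts, which kept 16873 genes. The cells were kept in PXGL medium and are called naive by the labels. The control group received a sense oligo (SO-L1) and the other group an antisense oligo (ASO-L1), each at 25 nM, and RNA was taken from unsorted cells 48 hours later. At the start both groups were also given trans-ISRIB (a blocker of the integrated stress response), emricasan (a caspase inhibitor) and the ROCK inhibitor Y-27632. Each group has 3 libraries of poly(A) RNA numbered 1 to 3, all from 1 cell line. Nothing says that the replicates were separate cultures, so the p-values reflect nothing beyond the variation among these libraries, which may be technical.

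Telomeres end human chromosomes in tandem copies of TTAGGG. Shelterin coats them and keeps them from being read as broken DNA: TERF1 and TERF2 bind the double-stranded repeat, TERF2IP (RAP1) rides on TERF2, TINF2 bridges the parts, and ACD (TPP1) holds POT1, which covers the single-stranded tail. ACD also brings in telomerase, whose reverse transcriptase TERT copies a template within the RNA TERC, and the helicase RTEL1 unwinds telomeric loops during replication. Pluripotent cells keep telomerase active, and TERF1 is known as an abundant transcript in them. The template region of TERC is shown because it encodes the repeat that the shelterin complex coats. It spans positions 26 to 76 of the 541-base GENCODE 29 transcript (GRCh38), in DNA letters 5′ to 3′, with the template itself, complementary to the repeat, in capitals.
TERC template region: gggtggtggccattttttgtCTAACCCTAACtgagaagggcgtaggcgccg

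Libraries held 23330875 to 31164287 counts. Library 2 of each group stood apart from libraries 1 and 3 (chi-square per degree of freedom 10.3 to 22.1 within a group, against 5.90 for SO-L1 libraries 1 and 3 and 1.97 for ASO-L1 libraries 1 and 3). LINE-1 itself is not analysed here. POU5F1, the central pluripotency factor, was at 1265 CPM (the count scaled to library size with TMM factors) in SO-L1. KLF17, a defining marker of the naive state, had only 6 to 23 reads a library, but it was the lowest of 10 naive markers. The others had SO-L1 means from 17.4 CPM (DPPA3) to 101 CPM (NLRP7). Of the 10, edgeR called KHDC3L, DPPA3, SUSD2 and DNMT3L lower and KLF4 and TFCP2L1 higher, where 15.7% of all tested genes were called lower and 18% higher. The summed level of these 10 naive markers was 433 to 480 CPM in SO-L1 and 389 to 405 CPM in ASO-L1. That of 7 primed markers was 405 to 416 and 571 to 642 CPM, and edgeR called 4 of them higher (SFRP2, DUSP6, THY1 and VIM) and none lower. For fibroblasts 6 markers summed to 472 to 532 and 526 to 578 CPM, almost all of it COL1A1 and COL1A2, while DCN had no read in 4 libraries. Of the 5 tested fibroblast markers COL1A1 and PDGFRB were called higher and none lower. The 6 trophoblast markers summed to 19.6 to 22.6 and 21.6 to 33.5 CPM. Of the 4 tested trophoblast markers CDX2 was called higher, with means of 0.369 and 1.80 CPM, and none lower.

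TERF2IP and TERF2 rose after ASO-L1, and no gene of the set was called lower by edgeR without a replicate block. TERF2IP was 1.76-fold and TERF2 1.31-fold higher. TERF1, by far the most abundant of the set, was at 0.696 of its control level and missed the threshold, but passed once the replicate number entered the fit. By this test 33.7% of all tested genes were called (18% higher and 15.7% lower), so 2 of 8, or 25%, is no larger a share than the background. Median log2 fold changes were -0.20 over the 8 genes and -0.01 over all tested genes. With the replicate number as a block 5 of the 8 were called, 2 higher and 3 lower (TERF1, POT1 and RTEL1), against 45.7% of all genes (23.3% higher, 22.5% lower). For 5 of the 8 genes no SO-L1 library fell within the ASO-L1 range, 2 being higher and 3 lower after ASO-L1, where 50.9% of all tested genes separated so (25.8% higher, 25.1% lower). DESeq2 called 32.2% of genes (17.4% higher, 14.8% lower) and limma-voom 33.7% (18.1% and 15.6%), and each called TERF2, TERF2IP and, lower, TERF1. In a test against a 1.2-fold change, passed by 12.2% of genes (7.47% higher, 4.77% lower), TERF2IP was the single gene of the 8 called (adjusted p = 0.0133).

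**Figure D1:**
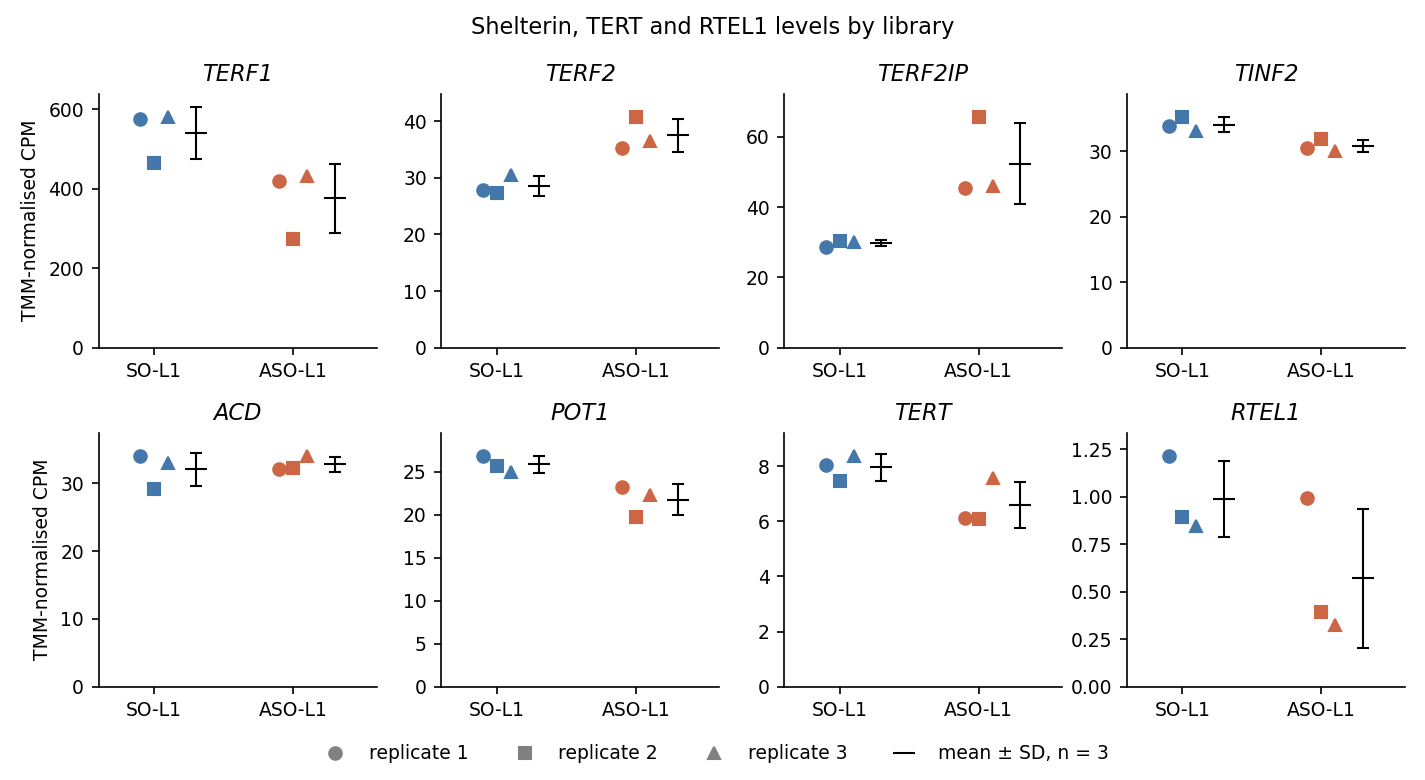
Level of each gene (TMM-normalised CPM, linear axes from 0) in the 3 SO-L1 and 3 ASO-L1 libraries, with marker shapes for replicate numbers and mean ± SD beside them. TERF2 and TERF2IP lie higher in every ASO-L1 library, TERF1, TINF2 and POT1 lie lower in every one, and replicate 2 is the lowest TERF1 library of each group.

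TERF1 binds the double-stranded repeat as a homodimer and limits telomere lengthening. It was at 575, 464 and 582 CPM in SO-L1 libraries 1 to 3 and at 420.3, 275 and 432 CPM in the ASO-L1 libraries. Every ASO-L1 library lay below every SO-L1 library, and library 2 was the lowest within each group. Group means were 540.2 ± 66.2 and 376 ± 87.9 CPM (SD, n = 3), a log2 fold change of -0.52 ± 0.18 (SE, 95% interval -0.95 to -0.10). EdgeR's quasi-likelihood test gave an adjusted p of 0.0615 without the block and 7.94e-06 with it (-0.54 ± 0.07). Within replicate numbers the log2 difference was -0.45, -0.76 and -0.43. DESeq2 (adjusted p = 0.00319) and limma-voom (0.0251) called TERF1 lower, as did edgeR without SO-L1 library 2 (0.0396, log2 fold change -0.63) or ASO-L1 library 2 (0.0180, -0.34). It was also called without replicate 2 of both groups (1.86e-09, -0.44). In 12 of the 18 alternative analyses TERF1 was not called by edgeR. Among these were no filter (adjusted p = 0.241), the test against a 1.2-fold change (0.199), and leaving out SO-L1 library 3 (0.152) or 1 (0.107). The authors' deposited table gives TERF1 a log2 fold change of -0.56 with an adjusted p of 0.0345, and their batch-corrected log2 values run from 9.03 to 9.13 in SO-L1 and from 8.44 to 8.59 in ASO-L1.

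TERF1 is often counted among genes of the pluripotent state, so the 5 core pluripotency markers are given beside it. Their summed level was 3397 to 3713 CPM in SO-L1 and 2855 to 3334 CPM in ASO-L1. Of POU5F1, SOX2, NANOG, LIN28A and PRDM14 only PRDM14 was called, lower by 0.39 ± 0.08 on the log2 scale (adjusted p = 0.00672 by edgeR, lost without replicate 1 of both groups at 0.0762 and against a 1.2-fold change at 0.125). NANOG was at 105, 102 and 104 CPM in SO-L1 and 95.6, 69.9 and 89.5 CPM in ASO-L1, so that library 2 was the lowest ASO-L1 library for NANOG as for TERF1. NANOG had an edgeR adjusted p of 0.0553 without and 0.00396 with the block. With the block 4 of the 5, NANOG among them, were called lower, against 22.5% of all tested genes (15.7% without the block). The part of this in the TERF1 result was not tested, and in bulk RNA fewer cells of a type and less RNA per cell cannot be told apart.

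TERF2, the paralog of TERF1 that protects telomeres from end joining, went the other way. Its level was 27.8, 27.3 and 30.5 CPM in SO-L1 and 35.3, 40.8 and 36.4 CPM in ASO-L1, with no overlap. The log2 fold change was 0.39 ± 0.09 (95% interval 0.20 to 0.59, adjusted p = 0.00778 by edgeR). The call ended without replicate 1 of both groups (0.0741) and in a test against a 1.2-fold change (0.124).

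Since both paralogs are counted in each library, their ratio needs no scaling. There were 20.7, 17.0 and 19.1 TERF1 counts per TERF2 count in SO-L1 and 11.9, 6.73 and 11.9 in ASO-L1. The ratio thus went from 18.9 ± 1.84 to 10.2 ± 2.98, the highest ASO-L1 value lying below the lowest of SO-L1. With TERF1 lower and TERF2 higher in every ASO-L1 library, this separation had to follow and is no further support. TERF1 made up 79.2%, 75.8% and 79.3% of the counts of the 6 shelterin genes in SO-L1 and 71.6%, 59.0% and 71.9% in ASO-L1. Counts are not scaled by length here, so these shares compare libraries and not genes. The summed level of the other 5 shelterin genes was 150 ± 1.97 CPM in SO-L1 and 175 ± 13.2 CPM in ASO-L1, and that of all 6 was 690.4 ± 68.2 and 551 ± 74.9 CPM.

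**Figure D2:**
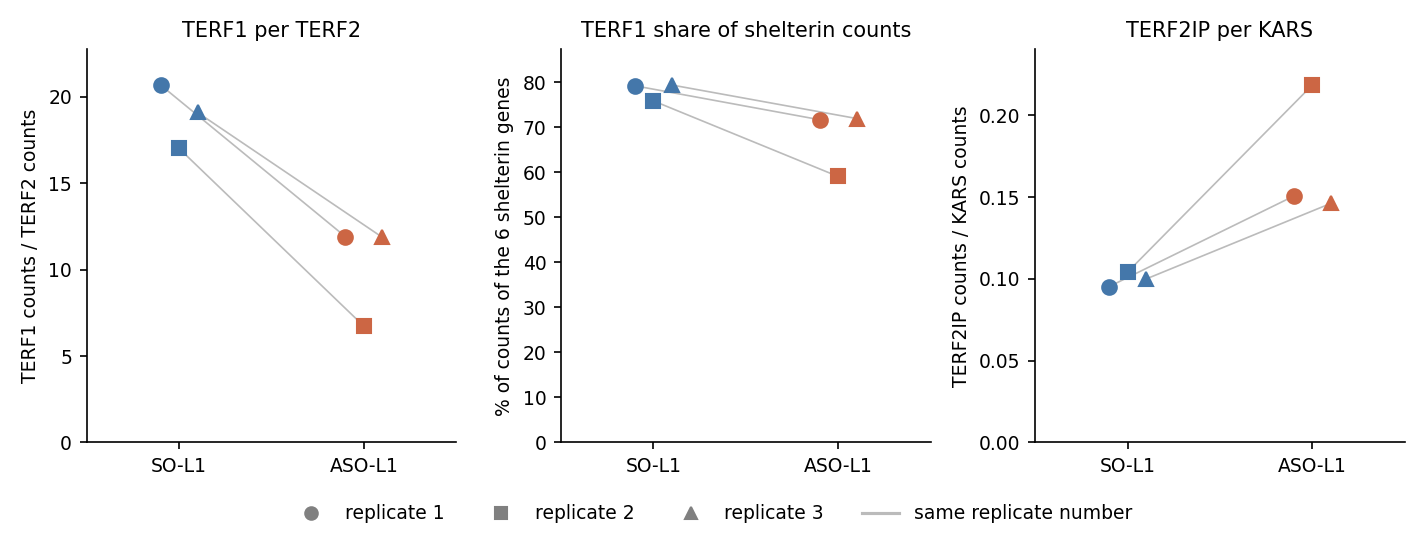
Ratios within each library, free of normalisation: TERF1 counts per TERF2 count, the percentage of shelterin counts that are TERF1, and TERF2IP counts per KARS count, for SO-L1 and ASO-L1 with lines joining replicate numbers. TERF1 per TERF2 lies at 17.0 to 20.7 in SO-L1 and 6.73 to 11.9 in ASO-L1, and ASO-L1 replicate 2 is the most distant library in each panel.

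TERF2IP, which is carried to telomeres by TERF2 and also acts away from them, had the largest increase of the 8. It was at 28.7, 30.5 and 30.1 CPM in SO-L1 and at 45.4, 65.7 and 46.0 CPM in ASO-L1. The lowest ASO-L1 library was well above the highest SO-L1 library, and ASO-L1 library 2 was the highest of all. The means were 29.7 ± 0.946 and 52.4 ± 11.6 CPM, a log2 fold change of 0.82 ± 0.13 (95% interval 0.51 to 1.12, adjusted p = 0.00309 by edgeR). Only 1080 of the 16873 tested genes had a larger increase. TERF2IP stayed called in each of 18 alternative analyses, with log2 fold changes of 0.62 to 0.92 and adjusted p-values up to 0.0432. The 0.62 was without ASO-L1 library 2. There were 1.03, 1.12 and 0.987 TERF2IP counts per TERF2 count in SO-L1 and 1.29, 1.61 and 1.26 in ASO-L1.

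TERF2IP lies on chromosome 16 (75647786 to 75761872 on the plus strand in GENCODE 29, GRCh38, which is not the build of the counts). It starts head to head with the lysyl-tRNA synthetase gene, named KARS in the count table and KARS1 in RefSeq, their RefSeq starts being 108 bases apart. The 107 bases between the starts are shown because this short stretch serves as the upstream sequence of both genes (RefSeq, GRCh38.p14, plus strand, chr16:75647666-75647772, 5′ to 3′). Capitals mark CTTCC, the reverse complement of GGAAG (the form of the ETS core searched for), and a GC box, GGGCGG. The shorter core GGAA was not searched for.
KARS1-TERF2IP interval: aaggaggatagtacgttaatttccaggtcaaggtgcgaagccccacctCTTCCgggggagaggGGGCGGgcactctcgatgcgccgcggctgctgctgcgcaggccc
On either strand, GGGCGG was found in 32.3% and GGAAG in 38.5% of the 35116 RefSeq promoter windows cut to the same 107 bases, so these matches are common. The interval held no CACGTG (E-box, in 3.59% of windows), no CCAAT (19%) and no TTAGGG (2.9%). RefSeq promoter windows were found for 6 of the 8 genes, and TERF1 and TERF2 had none in the table.

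KARS was at 301, 292 and 301 CPM in SO-L1 and at 301, 301 and 315 CPM in ASO-L1. It was not called (0.04 ± 0.06, adjusted p = 0.647), and its sign turned with upper-quartile factors (-0.01). TERF2IP counts per KARS count were 0.0953 to 0.104 in SO-L1 (mean 0.0998 ± 0.00445) and 0.146 to 0.219 in ASO-L1 (0.172 ± 0.0406). The ranges of this ratio did not overlap, and no test of it was run. In GENCODE 29 exons of KARS on the other strand cover 176 bases, or 5.21%, of the TERF2IP exons, and whether reads were counted by strand is not given in the sources used here.

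TINF2, the bridge of the complex, lay at 33.9, 35.3 and 33.0 CPM in SO-L1 and at 30.4, 31.9 and 30.1 CPM in ASO-L1. Though the groups did not overlap, the log2 fold change of -0.15 ± 0.08 did not pass (95% interval -0.31 to 0.02, adjusted p = 0.158 by edgeR and 0.112 with the block). The within-number differences were alike at -0.16, -0.15 and -0.13. TINF2 lies on chromosome 14 (24239643 to 24242674, minus strand, GENCODE 29, GRCh38).

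ACD, the subunit that recruits telomerase, showed no difference larger than the spread between libraries. It was at 34.0, 29.2 and 33.0 CPM in SO-L1 and at 32.1, 32.3 and 34.1 CPM in ASO-L1, and the groups overlapped. The log2 fold change was 0.03 ± 0.08, with a 95% interval of -0.15 to 0.22 and an adjusted p of 0.777. Its sign turned under 3 of 18 alternatives.

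POT1, which binds the single-stranded tail, was at 26.9, 25.7 and 25.0 CPM in SO-L1 and at 23.2, 19.7 and 22.3 CPM in ASO-L1. All ASO-L1 libraries lay below all SO-L1 libraries, with library 2 the lowest. The log2 fold change was -0.25 ± 0.09 (95% interval -0.45 to -0.05). It missed the threshold by edgeR (adjusted p = 0.0565) and passed with the block (0.0194), without replicate 2 of both groups (0.0403) and with upper-quartile factors (0.0374) or library totals alone (0.0412). The authors' deposited table does not call POT1 (-0.26, adjusted p = 0.0946).

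TERT, the catalytic subunit of telomerase, was detected in every library, with 139 to 257 reads. Levels were 8.03, 7.45 and 8.38 CPM in SO-L1 and 6.11, 6.10 and 7.56 CPM in ASO-L1. ASO-L1 library 3 reached into the range of the controls, so the groups overlapped. The log2 fold change of -0.27 ± 0.13 did not pass (95% interval -0.56 to 0.03, adjusted p = 0.142, 0.0689 with the block) and was not called in any of 18 alternatives. A drop of up to 0.56 on the log2 scale lies within that interval. Of TERC only 2, 5 and 3 reads were counted in SO-L1 and 2, 1 and 1 in ASO-L1. Mature TERC has no poly(A) tail and these libraries were poly(A)-selected, so no fold is given.

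RTEL1 had few reads: 38, 22 and 26 in SO-L1 and 24, 9 and 10 in ASO-L1. As CPM these were 1.22, 0.895 and 0.848 against 0.991, 0.395 and 0.325, so that ASO-L1 library 1 lay within the control range and libraries 2 and 3 below it. The log2 fold change was -0.82 ± 0.41 (95% interval -1.73 to 0.09, adjusted p = 0.145 by edgeR, 0.0468 with the block). Without ASO-L1 library 1 it was -1.45 (0.0232), without ASO-L1 library 3 it was -0.50 (0.383) and without replicate 1 of both groups -1.26 (0.0892). In GENCODE 29 the read-through gene RTEL1-TNFRSF6B shares 4522 exon bases with RTEL1, 70.2% of the RTEL1 exon length, and how reads in shared exons were assigned is not given in the sources used here. RTEL1-TNFRSF6B had 30, 18 and 26 reads in SO-L1 and 17, 15 and 12 in ASO-L1 (-0.57 ± 0.32, adjusted p = 0.190). Summed over both rows, the locus had 68, 40 and 52 against 41, 24 and 22 reads. The RTEL1 level is therefore uncertain. The copies of TERF1, TERF1P1 to TERF1P5, held at most 10 reads over all libraries, against 6260 to 17958 a library for TERF1.

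**Figure D3:**
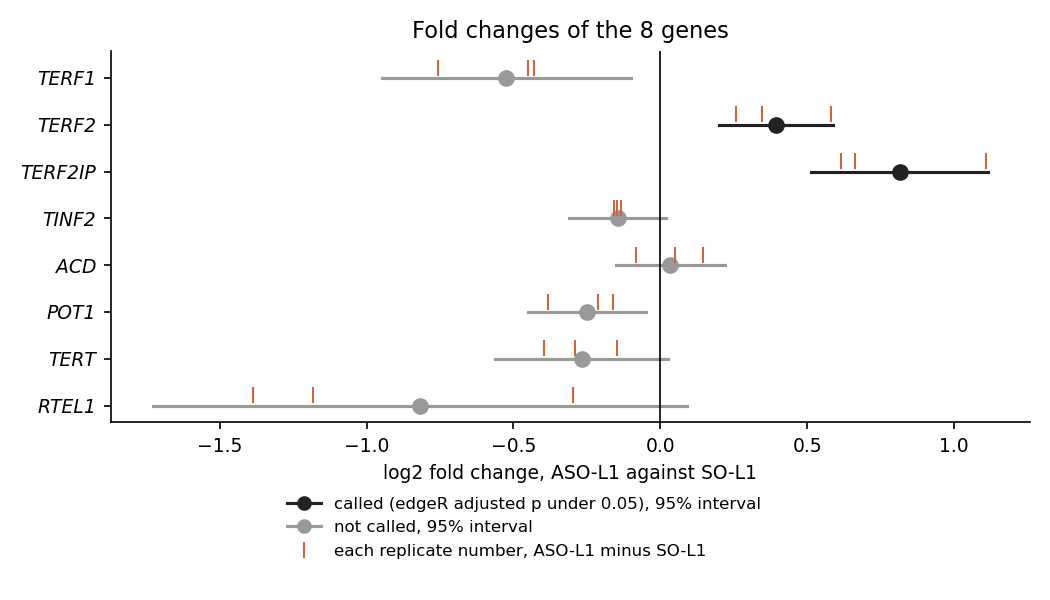
Log2 fold change of ASO-L1 against SO-L1 for the 8 genes with 95% intervals, black where edgeR called the gene and grey where it did not; ticks give the difference within each replicate number. TERF2 (0.39) and TERF2IP (0.82) are called, the interval of TERF1 runs from -0.95 to -0.10, and replicate number 2 gives the farthest tick from 0 for TERF1, TERF2, TERF2IP and POT1.

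Per kilobase of merged GENCODE 29 exons, the SO-L1 level (RPKM from TMM-normalised counts) was 61.2 ± 7.50 for TERF1, 12.6 ± 0.421 for TINF2, 9.94 ± 0.775 for ACD and 8.80 ± 0.280 for TERF2IP. TERF2 followed at 5.07 ± 0.306, POT1 at 4.38 ± 0.162, TERT at 1.73 ± 0.103 and RTEL1 at 0.153 ± 0.0311. Neighbours in this order did not overlap between libraries. After ASO-L1 TERF2IP, at 15.5 ± 3.42 RPKM, stood directly below TERF1, above TINF2 at 11.4 ± 0.352 and ACD at 10.2 ± 0.341. With the length of the principal transcript in place of merged exons, ACD (19.7 ± 1.54) and TINF2 (18.4 ± 0.616) swapped places in SO-L1. TERF1 then stood at 322 ± 39.5 RPKM, since its merged exons measure 8831 bases and its principal transcript 1677.

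The other genes of telomere upkeep moved in both directions. Of 48 genes listed by role, 46 were tested, and 9 rose and 8 fell (37% called, against 33.7% of all genes). The median of their log2 fold changes was -0.10, and by role it ran from -0.36 for partners of shelterin to 0.06 for chromatin factors. With the block 10 rose and 15 fell, where 45.7% of all genes were called (23.3% higher, 22.5% lower). Of the 17 called without the block, 10 also passed the test against a 1.2-fold change, and FEN1 (0.0884), EXO1 (0.672), MUS81 (0.372), NAF1 (0.215), PINX1 (0.0906), DKC1 (0.943) and RAD50 (0.259) did not. Among 14 tested genes of telomerase RNA, assembly and trafficking 4 rose and 1 fell. ZCCHC8, part of a nuclear RNA targeting complex that trims TERC precursors, rose from 50.1 ± 3.69 to 73.7 ± 12.8 CPM (0.56 ± 0.12). The assembly factor NAF1 rose by 0.34 ± 0.07. PINX1, an inhibitor of telomerase that binds TERF1, fell from 20.2 ± 0.414 to 14.1 ± 2.87 CPM (-0.51 ± 0.14). A further call, named outside the fixed rule after its value was seen, was dyskerin, DKC1 (0.20 ± 0.06), whose call ended in 11 of 18 alternatives. PINX1 lost its call without SO-L1 library 1 (0.0701) or 3 (0.0591), and ZCCHC8 (0.0616), NAF1 (0.0656) and PINX1 (0.133) lost theirs without replicate 1 of both groups. NAF1 was lost without replicate 3 of both as well (0.0927).

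Among the 8 listed partners of shelterin 2 fell and 1 rose, where 15.7% of all tested genes were called lower and 18% higher. The tankyrases TNKS and TNKS2, which modify TERF1 with poly(ADP-ribose) and release it from telomeres, fell from 86.2 ± 5.62 to 54.1 ± 4.30 CPM (-0.67 ± 0.08) and from 174 ± 7.68 to 115 ± 14.5 CPM (-0.59 ± 0.09). No TNKS or TNKS2 library of 1 group reached into the other, and both stayed called in all 18 alternatives. DCLRE1B (Apollo), the nuclease that TERF2 recruits, rose from 23.9 ± 1.05 to 33.8 ± 4.40 CPM (0.50 ± 0.10), a call lost without replicate 1 of both groups (0.0557). SMG6, a telomerase-associated endonuclease, had -0.20 ± 0.08 (adjusted p = 0.0959, 0.0410 with the block).

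Of the CST complex, which finishes the C-rich strand with DNA polymerase alpha, and of that polymerase, 6 genes were tested. Only 1 was called, where 33.7% of all tested genes were called (15.7% lower). That gene was POLA2, which fell from 49.5 ± 2.06 to 32.7 ± 5.21 CPM (-0.60 ± 0.11). It was lost without replicate 1 of both groups (0.0617). CTC1 had -0.10 ± 0.08, PRIM1 -0.21 ± 0.09 and PRIM2 -0.20 ± 0.11. With the block PRIM1 (0.0163) and PRIM2 (0.0375) were called lower, as were 22.5% of all tested genes.

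Among 6 genes of telomere replication and strand processing, the flap nuclease FEN1 rose (0.39 ± 0.07), as did the exonuclease EXO1 (0.24 ± 0.07), while the nuclease subunit MUS81 fell (-0.31 ± 0.08). Over all tested genes 18% were called higher and 15.7% lower. DNA2 had -0.23 ± 0.09 (adjusted p = 0.0696, 0.00879 with the block). EXO1 was lost without SO-L1 library 2 (0.0546) or 3 (0.0694) or ASO-L1 library 1 (0.0645), and MUS81 without SO-L1 library 1 (0.0656) or ASO-L1 library 1 (0.0806). Both were also lost without replicate 1 (0.136 and 0.198) or 3 (0.139 and 0.0695) of both groups.

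Telomeric chromatin factors held the largest increases of the 46 tested genes. DAXX, the H3.3 chaperone that works with ATRX, rose from 135 ± 3.73 to 244 ± 42.6 CPM (0.86 ± 0.11), and ZBTB48 (TZAP), which binds the repeat directly and trims long telomeres, from 14.1 ± 1.46 to 27.5 ± 4.89 CPM (0.96 ± 0.13). Both stayed called in all 18 alternatives. HMBOX1 (0.19 ± 0.10) and ZNF827 (-0.21 ± 0.08, adjusted p = 0.0777, 0.0262 with the block) did not pass.

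The damage kinases that shelterin holds in check both fell. ATM, which TERF2 restrains, went from 68.5 ± 3.26 to 48.2 ± 3.81 CPM (-0.51 ± 0.08), and ATR, which POT1 restrains, from 28.1 ± 1.32 to 20.4 ± 0.554 CPM (-0.47 ± 0.08). RAD50 of the MRN complex fell by 0.34 on the log2 scale. In this list 3 of 6 fell and none rose, where 15.7% of all tested genes were called lower and 18% higher. The call of RAD50 ended without SO-L1 library 1 (0.0502) or 3 (0.0688). It also ended when both libraries numbered 1 (0.113) or both numbered 3 (0.0620) were left out, and ATR lost its call in the first of these (0.0580).

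**Figure D4:**
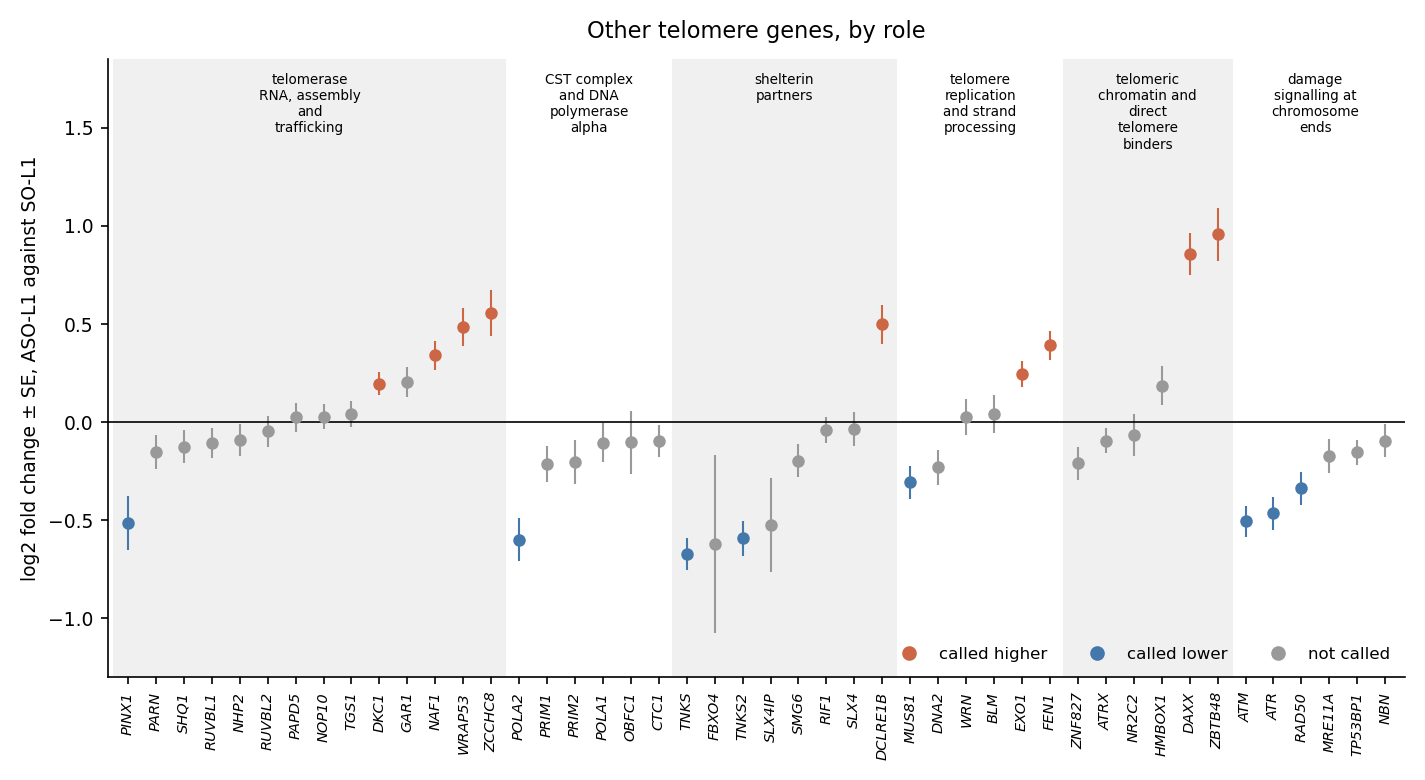
Log2 fold change ± SE of the 46 tested telomere genes outside the set, grouped by role and ordered by fold change within each role, coloured where edgeR called them higher or lower. TNKS and TNKS2 sit lowest among the called genes of their list, at -0.67 and -0.59, and ZBTB48 and DAXX highest of all, at 0.96 and 0.86.

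Genes whose pattern over the 6 libraries was most like that of a member were taken by Pearson's correlation of log2 CPM, as a description. Nearest to TERF1 were TTLL12, FANCI and SLC38A10, each at r = 0.997 or above, and 1044 genes exceeded 0.95. The nearest to TERF2 were HIVEP2, ACSL1 and PDE4DIP, with 649 genes over 0.95, and to TERF2IP KCTD6, ZNF333 and CTDNEP1, with 1801 over 0.95. POT1 was nearest to FGD3, RBM17 and R3HCC1L (656 genes). For ACD, whose groups overlapped, only 17 genes exceeded 0.95, led by TNIP2 at 0.985, SLC25A3 and TPM3. TINF2 was led by S100A14, GPC1 and CBLN3 (96 genes), TERT by USP20, RP11-983P16.4 and RUSC1 (102), and RTEL1 by C1orf191, LINC00461 and RP1-239B22.5 (19). With 6 libraries in 2 groups, such values are high for any pair of genes that separate the groups alike.

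**Figure D5:**
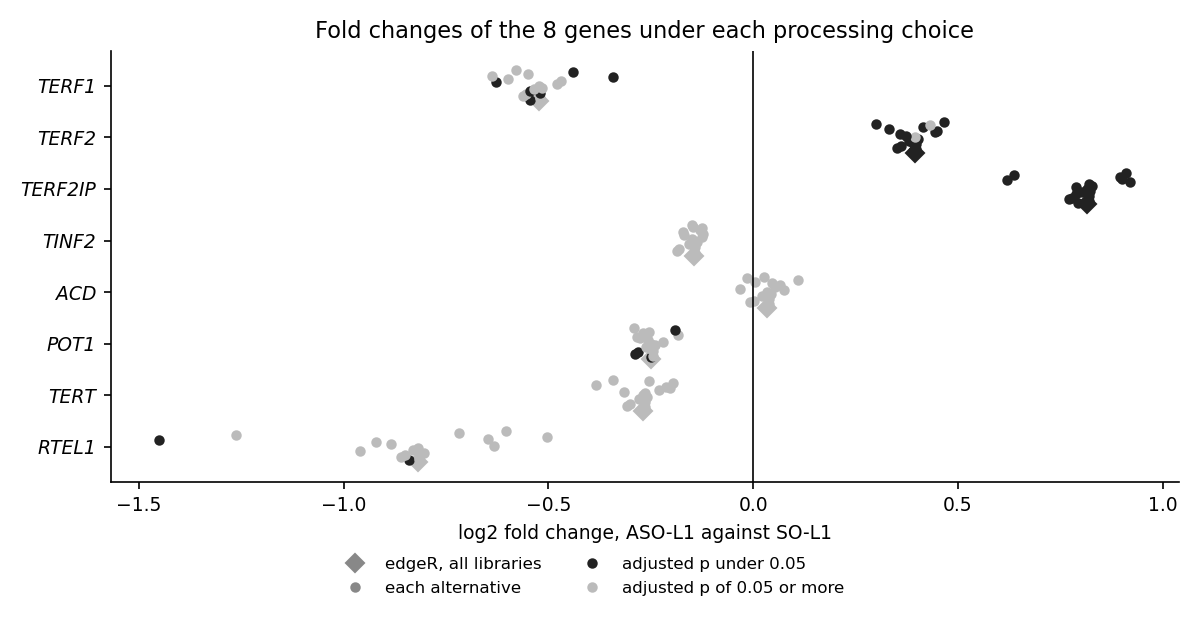
Log2 fold change of the 8 genes in the edgeR analysis of all libraries (diamonds) and in each alternative (dots), black where the adjusted p was under 0.05. TERF2IP stays between 0.62 and 0.92 and black throughout, TERF1 stays between -0.64 and -0.34 with calls in 6 alternatives, and ACD lies on both sides of 0.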

How the data were processed

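Per the file headers and the labels, the authors deposited raw read counts per gene symbol for 6 libraries. The counts are labelled rmDup, which may mean that duplicate reads were removed before counting. Its effect on abundant transcripts such as TERF1 was not tested. Per the submitters' processing notes reads were handled with TopHat2 2.0.13, Trim Galore 0.4.0 and Subread 1.5.0 (featureCounts), on hg19. No source used here gives the annotation or strand setting. A deposited table of batch-corrected log2 values and the authors' deposited comparison table (log2 fold change, adjusted p-value, moderated t and log-odds score, model not stated) are quoted only where named.

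Counts were filtered with filterByExpr (minimum count 10, minimum total 15) and tested with edgeR 4.0.16: TMM factors, robust quasi-likelihood test over all 16873 kept genes, no block, Benjamini-Hochberg adjustment, two-sided, calls at an adjusted p under 0.05. The script was tested on simulated data. There it called 12 of 100 genes changed 1.3-fold and 75 of 100 changed 2-fold, and 0.0732% of unchanged genes. Few genes were changed in the simulation, so these shares need not hold for the real libraries. An SE is the unshrunken log2 fold change over the square root of F. With 3 libraries a group, exact permutation reaches 0.1 at best and was not used. DESeq2 1.42.0 and limma 3.58.1 were alternatives.

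Members, lists and tests were chosen with earlier results of these data known. Named are all 8 members, up to 4 genes with the smallest p per list of telomere genes, loci that copy or overlap a member, and the 3 most similar genes per member. KARS and the core markers were added with values in view. For 2 of the list genes, which the counts include, values are not reported here. Replicate numbers were taken as pairs only for the block and for differences within numbers. Deviations from group means correlated at 0.102, 0.377 and 0.211 for numbers 1, 2 and 3. However, number 1 of one group and 3 of the other correlated at 0.156 and 0.162. The pairing is thus not settled, and since the labels state no block the main test used none.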

Additional observations from a re-analysis of the deposited data

How the results depend on the processing

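With the replicate block 5 of the 8 genes were called, 3 of them lower. Of the 46 tested wider telomere genes 15 were lower, where 22.5% of all tested genes were. The block changed no other call of a shelterin, TERT or RTEL1 gene than those given with TERF1, POT1 and RTEL1. DESeq2 and limma-voom each called 1 of the 8 lower, TERF1, where 14.8% and 15.6% of all tested genes were called lower. Upper-quartile factors and library totals alone also called 1 lower, but this was POT1. TERF1 there had edgeR adjusted p-values of 0.0512 and 0.0542. Of all 16873 tested genes these 2 settings called 3091 and 3026 lower. Against a 1.2-fold change 1 of the 8 was called (TERF2IP), 1 higher, with 10 of the wider telomere genes (5 higher and 5 lower) and 2066 of all genes (1261 higher, 805 lower). Leaving out 1 library, or a replicate number from both groups, gave 1 to 4 called genes of the 8 (1 to 2 higher, 0 to 2 lower), 7 to 21 of the wider telomere genes (4 to 10 higher, 3 to 11 lower) and 1183 to 7197 of all genes (757 to 3726 higher, 426 to 3471 lower). The lowest of each were without replicate 1 of both groups and the highest without replicate 2. All genes called numbered 2820 without replicate 3 of both groups, 3166 without SO-L1 library 1 and 2975 without SO-L1 library 3. With upper-quartile factors ACD turned to a log2 fold change of -0.0077 and KARS to -0.0056. Leaving out libraries gave ACD values of -0.0323 to 0.109, below 0 without SO-L1 library 2 or replicate 2 of both groups (-0.0158). With these factors 2644 of all calls were higher and 3091 lower, and with library totals alone 2653 and 3026, against 3031 and 2653. TERF1, TERF2, TERF2IP, TINF2, POT1, TERT and RTEL1 kept their direction in every alternative that tested them. The causes were not tested. RTEL1 was left out by a filter of CPM above 1 in 3 libraries, and its 9 to 38 reads a library limit what could be detected.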
